A study of Mus musculus with 54 samples.

Results

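The E2F transcription factors (E2f1 to E2f8) and their DP dimerization partners (Tfdp1 and Tfdp2) are described here in differentiating mouse myogenic progenitors that carry or lack functional emerin. The 10 genes were chosen by name and all 10 were measured, among 17824 annotated genes listed in the tables. E2F proteins control the genes that take a cell from G1 into S phase. E2f1, E2f2 and E2f3 are mainly activators, E2f4 and E2f5 act mainly as repressors with the pocket proteins, E2f6 represses without binding pocket proteins, and E2f7 and E2f8 are atypical repressors that bind DNA without a DP partner. In muscle precursors, E2F activity is known to be shut down by the retinoblastoma protein and its relatives when cells leave the cell cycle to differentiate.

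The study asked how emerin mutations that cause Emery-Dreifuss muscular dystrophy alter differentiation. Emerin is a protein of the inner nuclear membrane. RNA came from 6 lines of H2K cells, which are conditionally immortal mouse progenitors grown with γ-interferon. It was sequenced on days 0, 1 and 2 after serum withdrawal (0, 24 and 48 h). Differentiation also meant a higher temperature, less carbon dioxide and a medium for which the paper lists no γ-interferon. The parts of these changes in the differences between days cannot be told apart. The lines were wildtype, emerin-null (EMD-/y), and EMD-/y transduced by lentivirus with wildtype emerin (+EMD) or with emerin carrying S54F, Δ95–99 or Q133H. All 4 transduced lines therefore carried the null allele and a lentiviral insert. Unlike wildtype and EMD-/y progenitors, they were selected with puromycin, at doses that were not the same for all lines. For RNA, the mutant lines were seeded more densely than wildtype and EMD-/y progenitors. The labels give 3 replicates for each of 18 groups (54 samples), and they describe technical replicates of 2 biological replicates. Each day's 3 wildtype libraries served as the comparison for all 5 other lines, so comparisons on the same day are not independent. A vector-only line was not analysed here.

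Values are normalized counts, that is, reads divided by a size factor per library. The deposited tables held 1 value per group, and the reads of each library were recovered from them (16232422 to 19322084 reads per library over 13234 genes). In each group, the pair of libraries that lay closest together was set against the third. The chi-square per gene was 2.00 to 10.45 within the closest pairs and 10.3 to 164.3 between the third library and the pair. The farthest was library 3 of Q133H on day 2. In S54F on day 2 the choice of the pair rested on a small difference, 10.04 within it and 10.3 to the third library. The closest pair was therefore averaged and counted as 1 sample, which left 2 samples per group in the test, while means and SDs are over all 3 libraries (n = 3). The p-values measure the spread between these samples, which may be technical. Emd, the targeted gene, was at 987 to 1960 normalized counts in wildtype progenitors and at 0.457 to 3.52 in EMD-/y progenitors. It was no higher than 2.67 in any transduced line, so the transgenes were not counted under Emd and cannot be checked here. The paper reported emerin protein in these lines by western blot of proliferating progenitors. The amount was similar to wildtype except in Q133H, which had more. Myod1, Myog, Des and Cdh15, which define the muscle lineage, were at 2930 normalized counts or more in every deposited group value. Among the markers of other cell types, Pecam1 and Cdh5 (endothelial) reached at most 13.1 and 10.5, and Epcam (epithelial) at most 8.48. In bulk RNA, fewer cells that express a gene and less RNA per cell cannot be told apart.

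The promoters of the E2F genes are of interest because several E2F genes are themselves known targets of E2F. A window from 250 bases before to 50 bases after a RefSeq start site was found for 8 of the 10 genes (not for E2f4 and E2f5). By the gene coordinates given below, some windows lie wholly inside the gene. These are all windows of E2f1 (chr2:154569377-154569676), E2f8 (chr7:48881547-48881846) and Tfdp2 (chr9:96258455-96258754 and chr9:96258998-96259297). A second window of E2f2 (chr4:136180532-136180831) and of E2f3 (chr13:29984342-29984641) also lies inside the gene. For E2f1, E2f8 and Tfdp2 the sequence before the outermost start was not searched, so the lack of a match does not describe it. Windows were searched on both strands for TTTCCCGC, TTTCGCGC, TTTGCCGC and TTTGGCGC, forms of the E2F recognition sequence. At least 1 form was present for 4 of the 8 genes, E2f2, E2f3, E2f7 and Tfdp1, and for 704 of all 27025 genes with a window (2.6%), some of which have more than 1 window. Over single windows the share was 2.26% of 32851. A form was also present for 12 of the 24 E2F target genes, described later, that have a window. A match of letters is a description, not evidence that a factor bound. The part of each window that holds the match is printed 5′ to 3′ on the strand of the gene (RefSeq, GRCm38.p6), with the match in capitals. E2f2 (chr4:136172303-136172323, plus strand) has TTTGGCGC at position 40 after the start site. Tfdp1 (chr8:13338501-13338750, plus strand) has TTTCGCGC on the opposite strand, at −43. E2f7 (chr10:110745189-110745438, plus strand) has TTTCCCGC on the opposite strand, at −198. E2f3 (chr13:29986064-29986313, minus strand) has TTTCCCGC on the opposite strand, at −11.
E2f2: cggcatatagTTTGGCGCtaa
E2f3: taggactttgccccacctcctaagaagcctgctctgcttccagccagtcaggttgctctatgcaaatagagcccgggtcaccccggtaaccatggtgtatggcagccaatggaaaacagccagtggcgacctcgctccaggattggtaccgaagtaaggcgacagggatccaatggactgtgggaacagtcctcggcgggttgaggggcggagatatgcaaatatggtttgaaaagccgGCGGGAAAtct
E2f7: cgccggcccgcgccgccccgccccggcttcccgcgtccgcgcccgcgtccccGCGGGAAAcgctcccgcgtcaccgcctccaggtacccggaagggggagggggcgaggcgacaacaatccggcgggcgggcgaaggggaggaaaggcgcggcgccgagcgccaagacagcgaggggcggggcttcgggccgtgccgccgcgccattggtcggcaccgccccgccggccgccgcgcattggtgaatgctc
Tfdp1: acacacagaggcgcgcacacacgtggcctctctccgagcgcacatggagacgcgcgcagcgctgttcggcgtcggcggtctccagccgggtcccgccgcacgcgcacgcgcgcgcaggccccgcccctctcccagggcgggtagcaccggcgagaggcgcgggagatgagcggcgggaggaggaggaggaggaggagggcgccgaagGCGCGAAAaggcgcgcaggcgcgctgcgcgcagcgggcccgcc

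In mm10, E2f1 is at chr2:154559400-154569892, E2f2 at chr4:136172274-136196057, E2f3 at chr13:29906575-29986064, E2f4 at chr8:105297663-105305370, E2f5 at chr3:14578602-14606309, E2f6 at chr12:16810909-16826752, E2f7 at chr10:110745439-110787384, E2f8 at chr7:48866429-48882073, Tfdp1 at chr8:13338725-13378448 and Tfdp2 at chr9:96196246-96323646. None has a near-identical copy among annotated transcripts. Exons on the other strand overlap those of E2f8 (610 bases, Gm2788), E2f7 (86 bases, 1700020G17Rik) and E2f5 (26 bases, 1810022K09Rik). Whether reads were counted by strand is not stated, so a part of the reads at those bases may belong to the neighbor.

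Between days, more of the differences that passed were falls than rises, and all but 1 of the called falls lay between day 1 and day 2. The deposited group values were at least 2-fold lower in 16 of 120 gene-by-transition values (13.3%, against 8.1% of all values of annotated genes) and at least 2-fold higher in 4 (3.33%, against 8.64%). With replicate error, a gene was called when it differed at least 2-fold with an adjusted p below 0.05 (limma, Benjamini-Hochberg over 13234 genes). By this rule 17 values were lower and 5 were higher, and 40 and 14 passed the p threshold at any fold. The other 66 did not pass. Here and against wildtype, shares of all genes by direction are given only for the deposited values. The limma counts by direction have no such share beside them.

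From day 0 to day 1, 2 of the 10 genes were called in wildtype progenitors, beside 19.0% of all genes tested. The count was 1 in EMD-/y (15.9% of all genes), +EMD (13.9%), S54F (11.9%) and Δ95–99 (9.97%) progenitors. In Q133H progenitors, limma called 0 (9.14% of all genes), and 1 gene was lower and 0 were higher at an unadjusted p below 0.05. From day 1 to day 2, 2 were called in wildtype progenitors (17.6% of all genes), 3 in EMD-/y (14.7%), 3 in +EMD (17.0%), 4 in S54F (18.6%), 2 in Δ95–99 (11.8%) and 2 in Q133H progenitors (9.2%). All 16 calls of this second interval were lower. The heatmap of all log2 differences shows E2f7 falling in every line in the second interval.

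**Figure D1:**
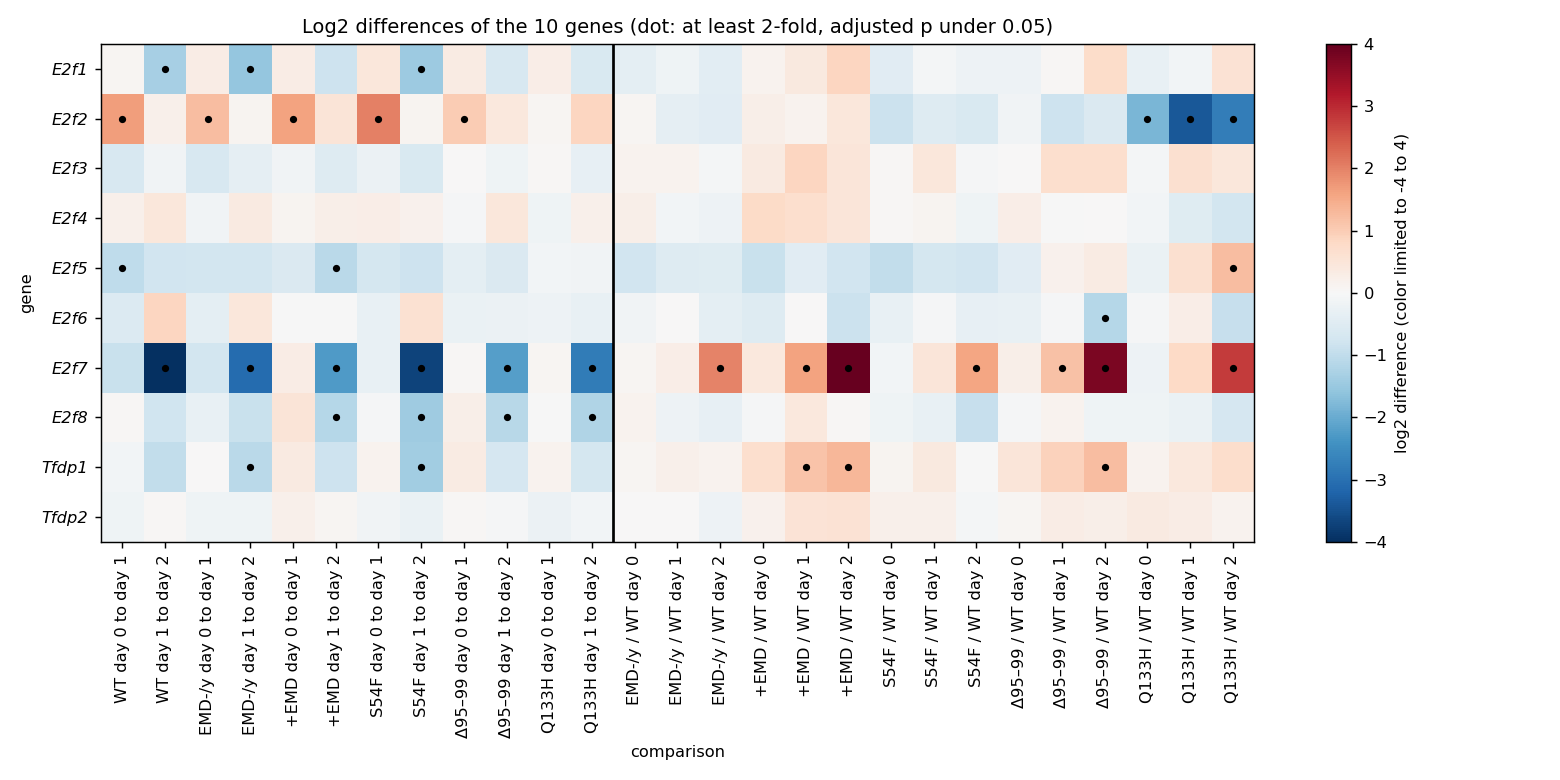
Log2 differences (color, limited to −4 to 4) of the 10 genes (rows) in the 12 comparisons between days and the 15 comparisons against wildtype (columns), from the limma fit on log2(normalized count + 1). Dots mark genes that differed at least 2-fold with an adjusted p below 0.05: all 6 lines have a dot for E2f7 from day 1 to day 2, and all 5 lines have 1 for E2f7 against wildtype on day 2.

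Against wildtype, the deposited values were at least 2-fold lower in 4 of 150 gene-by-comparison values (2.67%, against 7.18% of all values) and at least 2-fold higher in 11 (7.33%, against 7.66%). The limma fit gave the same counts of calls, 4 lower and 11 higher, while 18 and 36 passed at any fold and 96 did not pass. In EMD-/y progenitors limma called 0 of the 10 genes on day 0 (3.81% of all genes; 1 was lower at an unadjusted p below 0.05), 0 on day 1 (3.23%; 0 at that p) and 1 on day 2 (4.29%). In +EMD progenitors it called 0 on day 0 (12.9%; 2 lower and 3 higher at that p), 2 on day 1 (14.7%) and 2 on day 2 (15.5%). In S54F progenitors it called 0 on day 0 (6.72%; 3 lower), 0 on day 1 (6.72%; 2 lower and 2 higher) and 1 on day 2 (7.1%). In Δ95–99 progenitors it called 0 on day 0 (6.76%; 1 lower and 1 higher), 1 on day 1 (16.0%) and 3 on day 2 (19.2%). In Q133H progenitors it called 1 on day 0 (9.13%), 1 on day 1 (19.3%) and 3 on day 2 (29.1%). With 10 genes, none of these counts stood far from the share over all genes, and the differences lay in particular genes. Of the 117 differences that passed at any fold, transitions against wildtype included, 80 passed with each of the 54 libraries left out in turn (39 of the 43 called ones). Where a difference named here did not, its value without the deciding library is given with it.

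**Figure D2:**
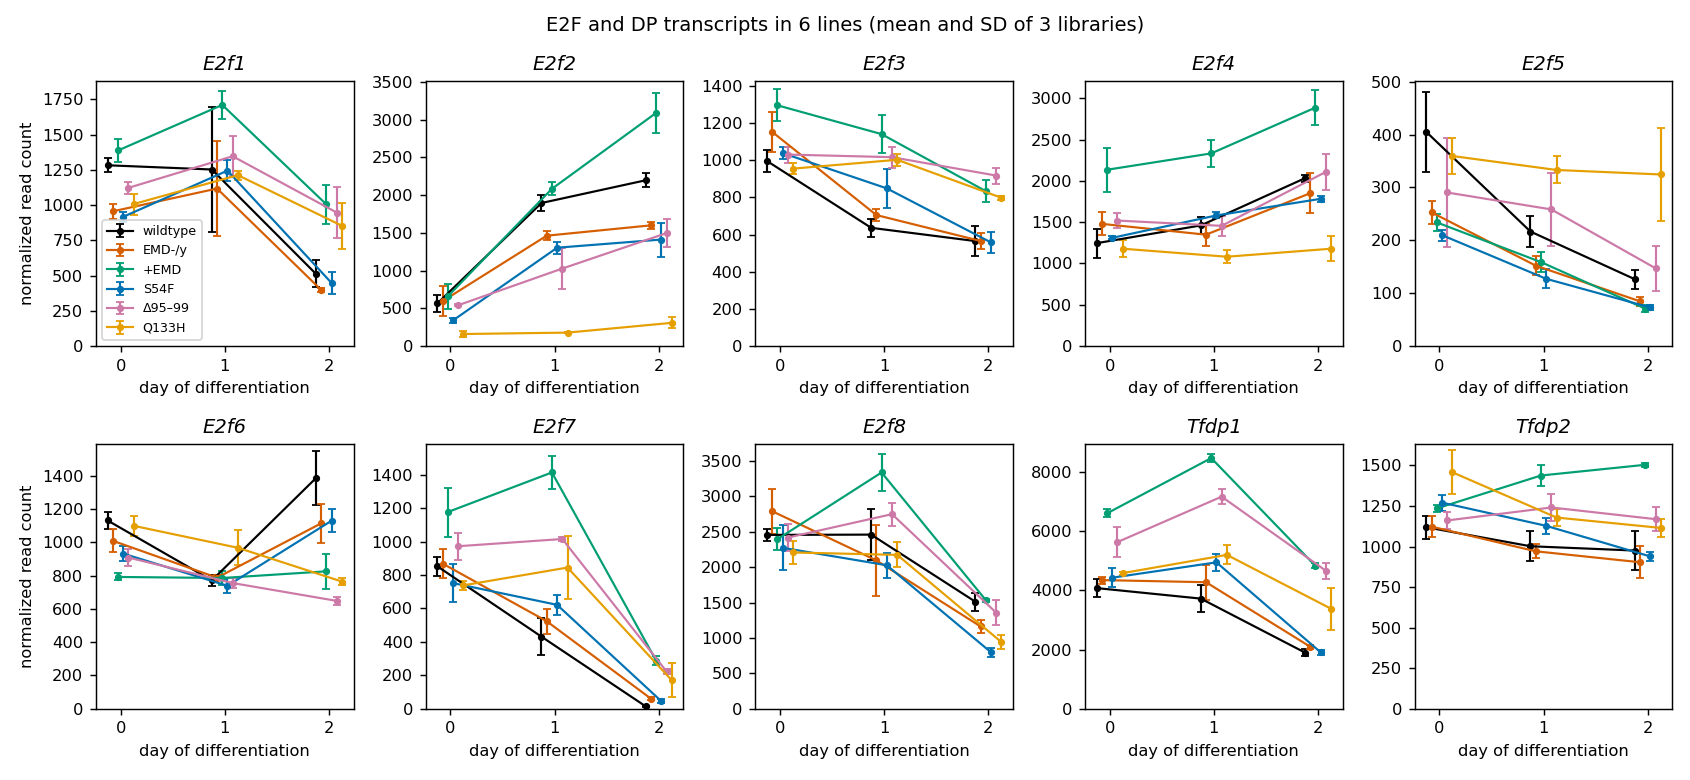
Normalized counts of the 10 genes (1 panel each) on days 0, 1 and 2 of differentiation in 6 lines; points are means and bars SDs of 3 libraries. E2f7 fell in all lines after day 1, E2f2 rose from day 0 to day 1 in all lines but Q133H, and E2f6 was highest in wildtype progenitors on day 2.

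E2f1, the activator best known for driving S phase entry, kept its level through day 1 in wildtype progenitors and then fell. Wildtype libraries had 1291, 1325 and 1230 normalized counts on day 0, 1759, 1062 and 935.4 on day 1, and 422.9, 612.9 and 498.4 on day 2. The day 2 libraries were all below those of day 1, whose own spread was wide (1252 ± 443.8). In the transduced lines every day 1 library was above every day 0 library. The lowest of day 1 and highest of day 0 were 1603 and 1475 in +EMD and 1170 and 955.6 in S54F. They were 1245 and 1148 in Δ95–99 and 1191 and 1093 in Q133H progenitors. None of these rises was called, and in EMD-/y progenitors the 2 days overlapped. The fall from day 1 to day 2 was −1.32 on the log2 scale (SE 0.23; adjusted p = 0.0001111) in wildtype, −1.56 in EMD-/y (adjusted p = 2.204e-05) and −1.44 in S54F progenitors (adjusted p = 3.948e-05). It was −0.83 in +EMD, −0.63 in Δ95–99 and −0.62 in Q133H progenitors, which passed below 2-fold (adjusted p = 0.005838, 0.03924 and 0.04958). Without library 1 of wildtype on day 1, the wildtype fall was −0.91 (adjusted p = 0.00697), below 2-fold. Without a single library of day 2, the smaller falls did not pass (+EMD −0.71 without library 2, adjusted p = 0.05588; Δ95–99 −0.42 without library 1, adjusted p = 0.2954; Q133H −0.37 without library 3, adjusted p = 0.4329). The day 2 libraries held 955.3, 896.9 and 1161 in +EMD, 771.6, 939.3 and 1128 in Δ95–99 and 960.5, 930.6 and 666.6 in Q133H progenitors, all above every wildtype library. These were 0.87, 0.75 and 0.58 above wildtype on the log2 scale (adjusted p = 0.004673, 0.01129 and 0.03513), the last at 0.52 without library 1 of wildtype (adjusted p = 0.05128). EMD-/y (408.3, 383.1 and 401.9) and S54F (420.2, 533.6 and 386.8) did not pass on day 2 against wildtype.

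E2f2, also an activator, went the other way and rose on day 1 in 5 of the 6 lines. In wildtype progenitors the libraries had 505.3, 487 and 700.5 normalized counts on day 0, 1909, 1789 and 1988 on day 1, and 2153, 2132 and 2301 on day 2. Every day 1 library was above every day 0 library, a 3.22-fold rise (log2 difference 1.69, SE 0.24; adjusted p = 1.014e-05). The rise was 1.22 in EMD-/y (adjusted p = 0.000341), 1.61 in +EMD (adjusted p = 2.573e-05), 2.00 in S54F (adjusted p = 3.863e-06) and 1.00 in Δ95–99 progenitors (adjusted p = 0.003069). In Δ95–99, library 1 of day 1 (1336) was above the other two (871.7 and 874), and without it the rise was 0.70 and did not pass (adjusted p = 0.0819). Q133H progenitors had the lowest levels of all lines on each day. Their libraries held 150.8, 130.1 and 198.8 on day 0, 177.5, 184.8 and 173.3 on day 1, and 254.4, 278.1 and 391.1 on day 2. All lay below the lowest library of any other line (299.5) except library 3 of day 2. Against wildtype they were 3.51-fold lower on day 0 (adjusted p = 1.202e-05), 10.6-fold lower on day 1 (adjusted p = 9.21e-10) and 6.74-fold lower on day 2 (adjusted p = 1.022e-08). The change from day 0 to day 1 in Q133H was 0.09 (adjusted p = 0.8056), and it differed from the wildtype change by −1.59 (SE 0.34; adjusted p = 0.002718). A rise from day 1 to day 2 in Q133H (0.85, adjusted p = 0.0109) was 0.58 without library 3 of day 2 and did not pass. E2f2 was also lower than wildtype in S54F on day 0 (−0.84; adjusted p = 0.01982) and in Δ95–99 on days 1 and 2 (−0.81 and −0.59; adjusted p = 0.01013 and 0.04657). The S54F value did not pass without library 3 of wildtype (−0.60; adjusted p = 0.1815), nor the Δ95–99 value of day 2 without its library 1 (−0.46; adjusted p = 0.2414) or scaled by total reads (−0.40; adjusted p = 0.1572).

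**Figure D3:**
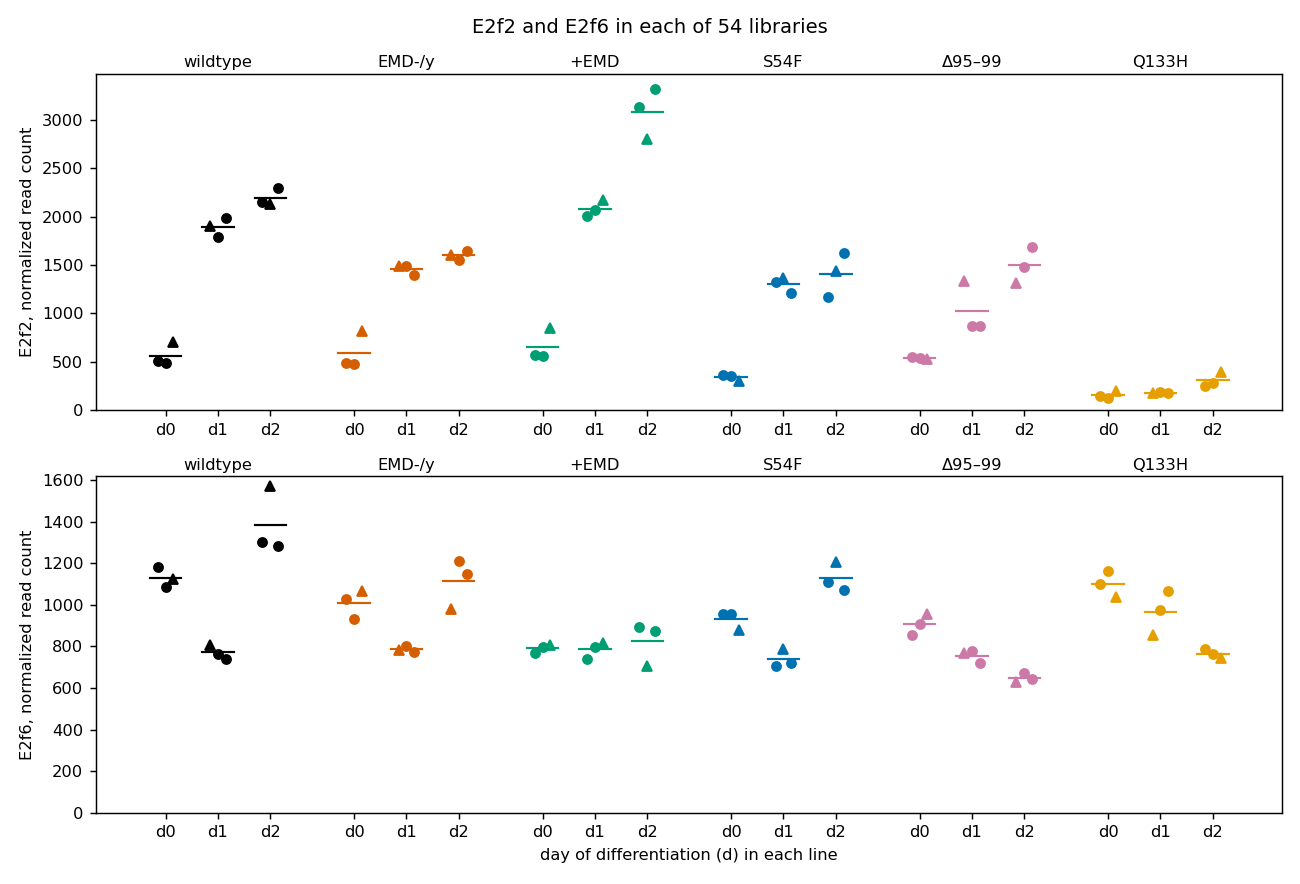
Normalized counts (linear axis) of E2f2 and E2f6 in each of 3 libraries by line and day; circles are the closest pair of libraries, triangles the third library, and bars the means. E2f2 stayed between 130.1 and 391.1 in all Q133H libraries, and E2f6 was at 1285 or above in all 3 wildtype libraries of day 2 and at 895.6 or below in all +EMD, Δ95–99 and Q133H libraries of that day.

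E2f3, the third activator, fell early in wildtype and EMD-/y progenitors. Wildtype libraries had 964.4, 961.4 and 1061 normalized counts on day 0 and 669.7, 657.9 and 580.5 on day 1, with no overlap. The fall was −0.65 in wildtype (SE 0.11; adjusted p = 5.384e-05) and −0.66 in EMD-/y progenitors (adjusted p = 6.043e-05), where libraries went from 1136, 1268 and 1053 to 743.4, 693 and 677.7. Δ95–99 libraries had 1079, 1002 and 1008 on day 0 and 1065, 954 and 1028 on day 1, and Q133H libraries had 984, 922.9 and 956.4, then 975.4, 1039 and 990.9. In these lines the days overlapped, and the change from day 0 to day 1 was above that of wildtype by 0.65 in Δ95–99 (adjusted p = 0.01437) and by 0.71 in Q133H (adjusted p = 0.002896). The Δ95–99 difference was 0.58 without library 3 of wildtype on day 0 (adjusted p = 0.0549). On day 1, E2f3 was higher than wildtype in +EMD (0.85; adjusted p = 3.215e-06), Δ95–99 (0.67), Q133H (0.63) and S54F progenitors (0.44, but 0.29 with an adjusted p of 0.1658 without its library 2). On day 2, all E2f3 libraries of +EMD (771 to 885.7), Δ95–99 (874.3 to 959.9) and Q133H (784 to 806.8) were above those of wildtype (476.1 to 636.1). Those of EMD-/y (520.6 to 604.2) and S54F (494 to 598.1) overlapped wildtype. No difference of E2f3 reached 2-fold.

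E2f4, the most abundant pocket-protein-bound repressor of quiescent cells, was not called in any comparison, while its levels over the 18 groups spanned 2.68-fold. Means over 3 libraries were 1246 ± 175.6, 1461 ± 101.1 and 2033 ± 43.1 normalized counts in wildtype progenitors on days 0, 1 and 2. The rise from day 1 to day 2 passed in wildtype (0.45; adjusted p = 0.01356), EMD-/y (0.36; adjusted p = 0.04556) and Δ95–99 progenitors (0.46; adjusted p = 0.01607). Scaled by total reads instead of size factors, the wildtype rise was 0.24 (adjusted p = 0.1288) and the EMD-/y rise 0.13 (adjusted p = 0.4372). Without library 3 of EMD-/y on day 1 the latter was 0.33 (adjusted p = 0.0616). +EMD progenitors had the highest levels on each day (2135 ± 265.0, 2333 ± 162.6 and 2888 ± 216.2), above wildtype by 0.77, 0.68 and 0.48 (adjusted p = 0.0002578, 0.0007302 and 0.01055), the last at 0.46 without library 2 of wildtype (adjusted p = 0.0629). Q133H progenitors had the lowest levels on each day (1179 ± 105.1, 1082 ± 79.8 and 1179 ± 154.7) and were below wildtype on day 1 (−0.49; adjusted p = 0.008099; −0.40 and 0.07927 without its library 1) and day 2 (−0.73; adjusted p = 0.0001615).

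E2f5, a second repressor of this class, fell over both intervals in wildtype progenitors. Wildtype libraries had 335.9, 394 and 485.5 normalized counts on day 0, 189.8, 249.1 and 210.8 on day 1, and 146.5, 112.6 and 120.8 on day 2, with no overlap between days. The falls were −1.01 (SE 0.27; adjusted p = 0.004318) and −0.76 (adjusted p = 0.02424). Each failed to pass without 1 particular library. Without library 3 of day 0 the first was −0.80 (adjusted p = 0.0615), and without library 2 of day 2 the second was −0.64 (adjusted p = 0.1462). The first also went below 2-fold without library 2 of day 0 (−0.95) or library 1 or 3 of day 1 (−0.87 and −0.95). Falls also passed in both intervals in EMD-/y (−0.74 and −0.75) and S54F (−0.71 and −0.84) and in the second in +EMD progenitors (−1.07; adjusted p = 0.002907). Of these, only the +EMD fall passed with each library left out. Without library 1 of day 1 the EMD-/y falls had adjusted p-values of 0.1658 and 0.0509, and the S54F falls had 0.1574 without library 3 of day 0 and 0.08405 without library 2 of day 2. In Q133H progenitors the means were 359.5 ± 34.4, 333.1 ± 25.5 and 324.6 ± 87.2, and no change passed. Its day 2 libraries (403.7, 339 and 231.1) all lay above those of wildtype, a 2.38-fold difference (1.25; adjusted p = 0.00047). E2f5 was lower than wildtype in +EMD on days 0 and 2 (−0.88 and −0.76; adjusted p = 0.01529 and 0.02988) and in S54F on day 0 (−0.99; adjusted p = 0.0162). Without library 3 of wildtype the day 0 values did not pass (−0.67 and −0.78; adjusted p = 0.1295 and 0.1289), nor did the day 2 value without library 2 of +EMD (−0.84; adjusted p = 0.06705).

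E2f6, which represses through polycomb-type complexes, dipped on day 1 and rose on day 2 in wildtype progenitors. Libraries had 1182, 1084 and 1127 normalized counts on day 0, 808.4, 765.8 and 739.4 on day 1, and 1303, 1571 and 1285 on day 2. The 3 days did not overlap, with log2 differences of −0.53 (SE 0.11; adjusted p = 0.0006797) and 0.87 (adjusted p = 4.673e-06). The day 2 rise passed in S54F (0.61; adjusted p = 0.0001942) and EMD-/y progenitors (0.45; adjusted p = 0.003186), the latter at 0.22 when scaled by total reads (adjusted p = 0.1061). It did not pass in the other lines, where the change was 0.00 in +EMD, −0.24 in Δ95–99 (adjusted p = 0.114) and −0.30 in Q133H (adjusted p = 0.05264). Day 2 libraries held 895.6, 706.4 and 875 in +EMD, 627.1, 673.3 and 643.7 in Δ95–99 and 785.8, 763.4 and 742.6 in Q133H progenitors. All 9 were below every day 2 library of wildtype, EMD-/y and S54F (lowest 981.4). The change from day 1 to day 2 differed from that of wildtype by −0.87 in +EMD (SE 0.16; adjusted p = 0.002397), −1.11 in Δ95–99 (adjusted p = 0.0003921) and −1.17 in Q133H (adjusted p = 0.0001546). Against wildtype on day 2, E2f6 was 2.22-fold lower in Δ95–99 (adjusted p = 1.291e-07), 1.88-fold in Q133H (adjusted p = 1.09e-06), 1.80-fold in +EMD (adjusted p = 5.792e-06) and 1.32-fold in EMD-/y progenitors (adjusted p = 0.02983). The EMD-/y difference did not pass without library 2 of wildtype (−0.27; adjusted p = 0.3933), and without it the change of Δ95–99 differed from that of wildtype by −0.97. Scaled by total reads, the day 2 difference of Δ95–99 from wildtype was −0.96 and the change in Q133H differed from that of wildtype by −0.998, both just under 2-fold.

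E2f7, an atypical repressor that is itself transcribed in S phase, had the largest differences of the 10 genes. In wildtype progenitors the libraries had 914.3, 841.3 and 800.4 normalized counts on day 0, 548.8, 413 and 331.6 on day 1, and 9.989, 17.41 and 16.26 on day 2. The days did not overlap. The difference from day 0 to day 1 was −0.89 (SE 0.38; adjusted p = 0.0561). It was −1.17 without library 1 of day 1 (adjusted p = 0.04821) and −1.01 with each library counted separately (adjusted p = 0.00168), and both passed. The fall from day 1 to day 2 was 28.1-fold (−4.81; adjusted p = 4.177e-09). E2f7 fell over the second interval in all other lines too, by 13-fold in S54F, 8.44-fold in EMD-/y, 6.91-fold in Q133H, 4.76-fold in +EMD and 4.64-fold in Δ95–99 progenitors (adjusted p = 1.919e-07, 2.666e-06, 1.968e-05, 8.969e-05 and 0.0002083).

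On day 2, E2f7 was higher than wildtype in all 5 lines. Libraries held 260.6, 295.3 and 309.3 normalized counts in +EMD, 206.5, 239.5 and 223.6 in Δ95–99, and 207.3, 249.9 and 54.31 in Q133H progenitors. They held 72.53, 58.05 and 51.57 in EMD-/y and 44.53, 56.47 and 34.95 in S54F progenitors. Every one of these was above the highest wildtype library (17.41). The differences were 18.1-fold in +EMD (4.17; adjusted p = 3.227e-08), 13.6-fold in Δ95–99 (3.77; adjusted p = 1.406e-07), 6.99-fold in Q133H (2.80; adjusted p = 2.5e-06), 3.97-fold in EMD-/y (1.99; adjusted p = 0.00143) and 3.0-fold in S54F progenitors (1.59; adjusted p = 0.006048). The S54F call was lost without library 2 of its day 2 group (1.34; adjusted p = 0.0814). On day 1, +EMD libraries (1503, 1425 and 1311) and Δ95–99 libraries (1026, 1011 and 1009) were above all those of wildtype (1.61 and 1.17; adjusted p = 0.001867 and 0.01785). Without library 1 the Δ95–99 value was 1.16, almost the same, and did not pass. Q133H (638.3, 1004 and 890.1) did not pass on day 1 (0.78; adjusted p = 0.09627).

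The fall of E2f7 itself was smaller than in wildtype by 2.56 in +EMD (SE 0.53; adjusted p = 0.005694), 2.60 in Δ95–99 (adjusted p = 0.00423) and 2.02 in Q133H progenitors (adjusted p = 0.01118) on the log2 scale. It differed by 1.73 in EMD-/y (adjusted p = 0.7846) and 1.11 in S54F (adjusted p = 0.4806), which did not pass. Library 3 of Q133H on day 2 set these values in part, since 54.31 lay far below the other two. Without it the Q133H difference was 3.05 (adjusted p = 6.34e-06), the fall in Q133H was −1.76 (adjusted p = 0.0001874), and the EMD-/y difference of 1.73 passed (adjusted p = 0.007604). With each library counted separately, the EMD-/y difference also passed (1.71; adjusted p = 0.01999).

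**Figure D4:**
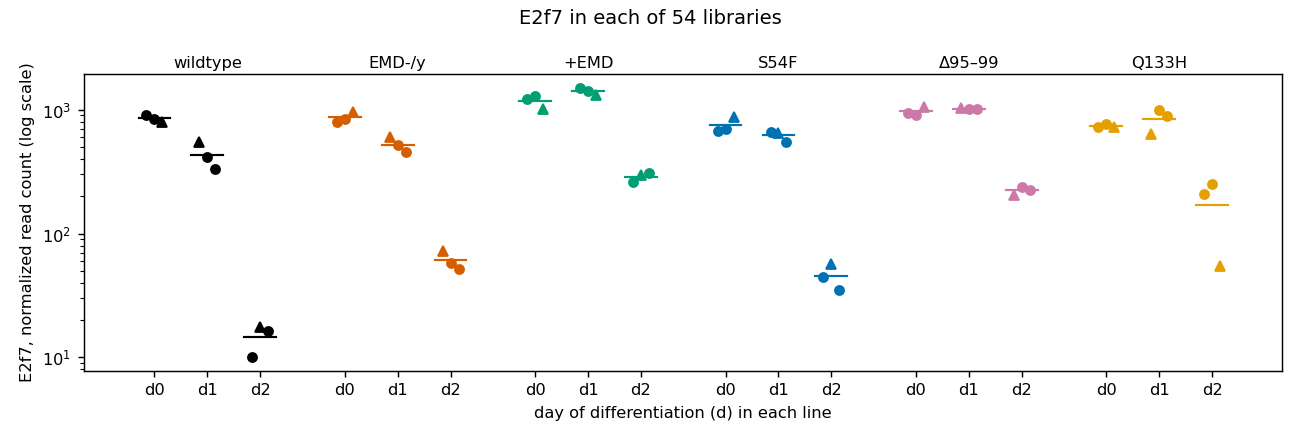
Normalized counts of E2f7 (log axis) in each of 3 libraries by line and day; circles are the closest pair of libraries, triangles the third library, and bars the means. On day 2 all 15 libraries of the other lines lie above the 3 wildtype libraries (9.989 to 17.41), and the triangle of Q133H (54.31) lies far below its pair.

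E2f8, the other atypical repressor, fell from day 1 to day 2 in every line, by 1.73-fold in wildtype and up to 2.65-fold in S54F progenitors. Wildtype means were 2454 ± 80.0, 2458 ± 363.8 and 1511 ± 127.2 normalized counts on days 0, 1 and 2. The fall was −0.79 in wildtype (SE 0.17; adjusted p = 0.0007265) and −0.89 in EMD-/y progenitors (adjusted p = 0.0002639), below 2-fold. It was −1.15 in +EMD, −1.41 in S54F, −1.10 in Δ95–99 and −1.20 in Q133H progenitors (adjusted p = 2.721e-05, 1.363e-06, 9.834e-05 and 2.687e-05). Without library 1 of day 2, the Δ95–99 fall was −0.94. The +EMD and Δ95–99 values went below 2-fold (−0.98 and −0.94) with the third libraries of a day as a block. On day 2, S54F libraries (856.4, 732.9 and 802.8) were all below those of wildtype (−0.91; adjusted p = 0.0007138), and so were those of Q133H (941.0 ± 98.6; −0.68; adjusted p = 0.001622). No line passed above wildtype on that day. Scaled by total reads, the Q133H difference was −0.41 (adjusted p = 0.06256).

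Tfdp1, the main DP partner of E2f1 to E2f6, also fell after day 1. Wildtype libraries had 3880, 3932 and 4432 normalized counts on day 0, 4186, 3733 and 3258 on day 1, and 1802, 2038 and 1860 on day 2. The fall from day 1 to day 2 was −0.98 in wildtype (1.98-fold; SE 0.14; adjusted p = 8.732e-06), −1.06 in EMD-/y (adjusted p = 4.462e-06) and −1.38 in S54F progenitors (adjusted p = 1.355e-07). It was −0.81 in +EMD, −0.71 in Q133H and −0.66 in Δ95–99 progenitors. +EMD progenitors had the highest levels (6608 ± 132.4, 8477 ± 142.1 and 4830 ± 83.6). Their 9 libraries were above all wildtype libraries of any day, with differences of 0.67, 1.15 and 1.32 on days 0, 1 and 2 (adjusted p = 0.0006701, 1.628e-06 and 1.986e-07). Δ95–99 followed (5637 ± 499.9, 7172 ± 260.0 and 4667 ± 270.5), with differences of 0.47, 0.92 and 1.25 (adjusted p = 0.02136, 2.83e-05 and 4.024e-07), the first at 0.36 without its library 3 (adjusted p = 0.1853). Q133H passed on days 1 and 2 (0.42 and 0.69), where library 3 of day 2 (2574) was below the other two (3867 and 3706). Without library 1 of EMD-/y on day 1, its fall was −0.90, below 2-fold, and it was −0.98 with the third libraries of a day as a block.

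Tfdp2, the second DP partner, was the steadiest of the 10 genes, with group means from 903.5 ± 97.9 normalized counts (EMD-/y, day 2) to 1504 ± 12.6 (+EMD, day 2). It was above wildtype in +EMD on days 1 and 2 (0.54 and 0.58; adjusted p = 0.0003716 and 0.0001548), where day 2 libraries had 1517, 1503 and 1492. No difference of Tfdp2 reached 2-fold.

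Set on 1 scale through wildtype on day 0, the 18 groups spanned 86.1-fold for E2f7, 18.5-fold for E2f2, 5.62-fold for E2f5, 4.47-fold for Tfdp1, 4.22-fold for E2f1, 4.19-fold for E2f8, 2.68-fold for E2f4, 2.32-fold for E2f3, 2.14-fold for E2f6 and 1.66-fold for Tfdp2. +EMD was the highest group for 8 genes, on day 0 (E2f3), day 1 (E2f1, E2f7, E2f8 and Tfdp1) or day 2 (E2f2, E2f4 and Tfdp2). E2f5 was highest in wildtype on day 0 and E2f6 in wildtype on day 2. The lowest groups were EMD-/y on day 2 for E2f1 and Tfdp2, S54F on day 2 for E2f3 and E2f8, wildtype on day 2 for E2f7 and Tfdp1, Q133H on day 0 for E2f2 and day 1 for E2f4, +EMD on day 2 for E2f5 and Δ95–99 on day 2 for E2f6. Most neighbors in these orders overlapped. Of 17 neighboring pairs per gene, the libraries did not overlap in 6 for E2f2, 5 for E2f7 and Tfdp1, 4 for E2f8, 3 for E2f1 and E2f5, 2 for E2f3, E2f4 and E2f6, and 1 for Tfdp2. For E2f7, the gaps lay between +EMD on day 1 and +EMD on day 0, Q133H on day 0 and S54F on day 1, wildtype on day 1 and +EMD on day 2, +EMD and Δ95–99 on day 2, and S54F and wildtype on day 2.

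Per kilobase of transcript, Tfdp1 had the highest level in wildtype progenitors on day 0 (1593 normalized counts per kilobase). E2f8 (656), E2f4 (584.3), E2f1 (470.7) and E2f6 (458.2) followed, and E2f5 (217), E2f3 (216), E2f7 (164), Tfdp2 (155.2) and E2f2 (126.6) were lower. By day 2 the order of levels per kilobase had changed. E2f4 was first (953.3), ahead of Tfdp1 (741.6), E2f6 (561.5), E2f2 (492.7) and E2f8 (403.9), and E2f7 was last (2.803). E2f2 thus went from the lowest of the 8 E2F genes per kilobase to the third.

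Over the 18 group levels, Fbxo5 and Pbk were most like E2f7 among 11031 genes (Pearson r = 0.99 for both). Orc6 (0.99) and Rnf168 (0.98) were most like Tfdp1, Dctd (0.99) and Obi1 (0.97) most like E2f3, Zranb3 (0.97) and Baz1b (0.96) most like E2f1, and Ahcyl1 (0.97) and Csf1 (0.96) most like E2f5. Hjurp (0.96) and Mmgt1 (0.93) were nearest to E2f8, Pnmal2 (0.95) and Fndc1 (0.94) to E2f2, and Pard3 and Opa1 (0.94 each) to E2f4. E2f6 (Arl6ip4 and Gsk3a, 0.87 each) and Tfdp2 (Lnx1, 0.86, and Slc35g1, 0.85) had less close neighbors. Within the family, E2f1 and Tfdp1 were alike at 0.92 and E2f7 and Tfdp1 at 0.91, while the closest relative of E2f6 was at −0.02 (E2f5). The groups share libraries, lines and days, so these values are descriptions.

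The pocket proteins, the MuvB subunits that join them in repressing cell cycle genes, and Gmcl1 (germ cell-less, which binds emerin and a DP protein) formed a list of 9 genes, all tested. Rb1, which holds activator E2Fs inactive, rose from day 0 to day 1 in wildtype progenitors from 1765 ± 202.5 to 9967 ± 881.7 normalized counts (2.42; SE 0.22; adjusted p = 6.015e-08). It rose by 2.22 in EMD-/y, 2.35 in +EMD, 2.33 in S54F and 1.81 in Δ95–99 progenitors. In Q133H progenitors it went from 1810 ± 449.5 to 2988 ± 536.6 and 6053 ± 1936 on day 2, and its first change was below that of wildtype by −1.71 (adjusted p = 0.0009405). On day 1 Rb1 was lower than wildtype in Q133H (−1.64; adjusted p = 4.82e-06) and Δ95–99 (−1.15; adjusted p = 0.0003452). Rbl1, the pocket protein p107, which is itself an E2F target, fell from day 1 to day 2 in wildtype progenitors from 1134 ± 269.0 to 244.3 ± 62.9 (−2.21; adjusted p = 3.149e-07). On day 2 it was above wildtype in Δ95–99 (1.61), +EMD (1.34) and Q133H progenitors (1.27; adjusted p = 1.468e-05, 0.000123 and 9.871e-05). Lin54 and Lin52 of MuvB differed by less than 2-fold in every comparison. Of the 9 genes, no more than 1 was called in either direction in any comparison except Q133H against wildtype on day 2, where Rbl1 and Gmcl1 (1.01; adjusted p = 1.479e-05) were both higher.

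Known E2F target genes of G1 and S phase were followed as a list of 30, all tested. They include Mybl2, a transcription factor of S phase, Tk1, which makes thymidine monophosphate, and Mcm2 of the replicative helicase. From day 0 to day 1, 9 were called lower in wildtype (beside 19.0% of all genes called in either direction; median log2 difference −0.68, against 0.01 over all genes), 3 in EMD-/y (15.9%; median −0.60) and 1 in S54F progenitors (11.9%; median −0.07). Limma called 0 in +EMD, Δ95–99 and Q133H progenitors (medians 0.24, 0.16 and 0.01), where 0, 0 and 1 were lower and 3, 1 and 1 were higher at an unadjusted p below 0.05. From day 1 to day 2 most targets fell in every line. The counts called lower were 29 in wildtype (17.6% of all genes; median −2.30), 29 in S54F (18.6%; −2.5), 28 in EMD-/y (14.7%; −2.04), 27 in Q133H (9.2%; −1.74), 25 in +EMD (17.0%; −1.29) and 19 in Δ95–99 progenitors (11.8%; −1.28), while the median of all genes was between −0.03 and 0.02.

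Against wildtype, 19 of the 30 targets were called higher on day 1 in +EMD (beside 14.7% of all genes called in either direction; median 1.38), 16 in Δ95–99 (16.0%; 1.10), 9 in Q133H (19.3%; 0.78) and 2 in S54F progenitors (6.72%; 0.61). The S54F count was near the share of all genes, but 17 targets were higher and 0 lower there at an unadjusted p below 0.05. In EMD-/y limma called 0 on day 1 (3.23%; median 0.13; 0 at an unadjusted p below 0.05). On day 2 the counts were 28 in +EMD (15.5% of all genes; 2.36), 28 in Δ95–99 (19.2%; 2.06), 21 in Q133H (29.1%; 1.37), 4 in S54F (7.1%; 0.41) and 2 in EMD-/y progenitors (4.29%; 0.47). Limma called 0 targets lower than wildtype in any line on any day, and no more than 1 in a comparison had an unadjusted p below 0.05 in that direction. Mybl2 had 996.1 ± 173.1, 189.2 ± 64.9 and 12.6 ± 3.69 normalized counts in wildtype on days 0, 1 and 2, and 1931 ± 109.3, 1073 ± 72.5 and 204.3 ± 6.63 in +EMD progenitors. On day 2 in +EMD, Mybl2 was 3.83 above wildtype, Tk1 3.88 and Mcm2 1.89 (adjusted p = 6.341e-07, 6.211e-07 and 3.161e-06). In EMD-/y on day 2 Tk1 was above wildtype (1.96; adjusted p = 0.006141), from 20.3 ± 8.58 to 84.8 ± 12.1. The +EMD, Δ95–99 and Q133H lines were those with the most targets above wildtype, and EMD-/y and S54F those with the fewest. In +EMD, Δ95–99 and Q133H, E2f1 and Tfdp1 were above wildtype on day 2, E2f6 was below it and E2f7 fell less. The day 2 libraries of E2f6 in EMD-/y (981.4 to 1212) and S54F (1073 to 1207) were also below those of wildtype (lowest 1285). On day 0, every E2f6 library of EMD-/y, +EMD, S54F and Δ95–99 was below those of wildtype (lowest 1084). +EMD was the lowest then (768 to 808.2), and Q133H (1038 to 1161) overlapped wildtype. Any link between these genes and the targets was not tested. The mutant lines also differed from wildtype in seeding density, and all transduced lines in selection; their part in these values was not tested.

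**Figure D5:**
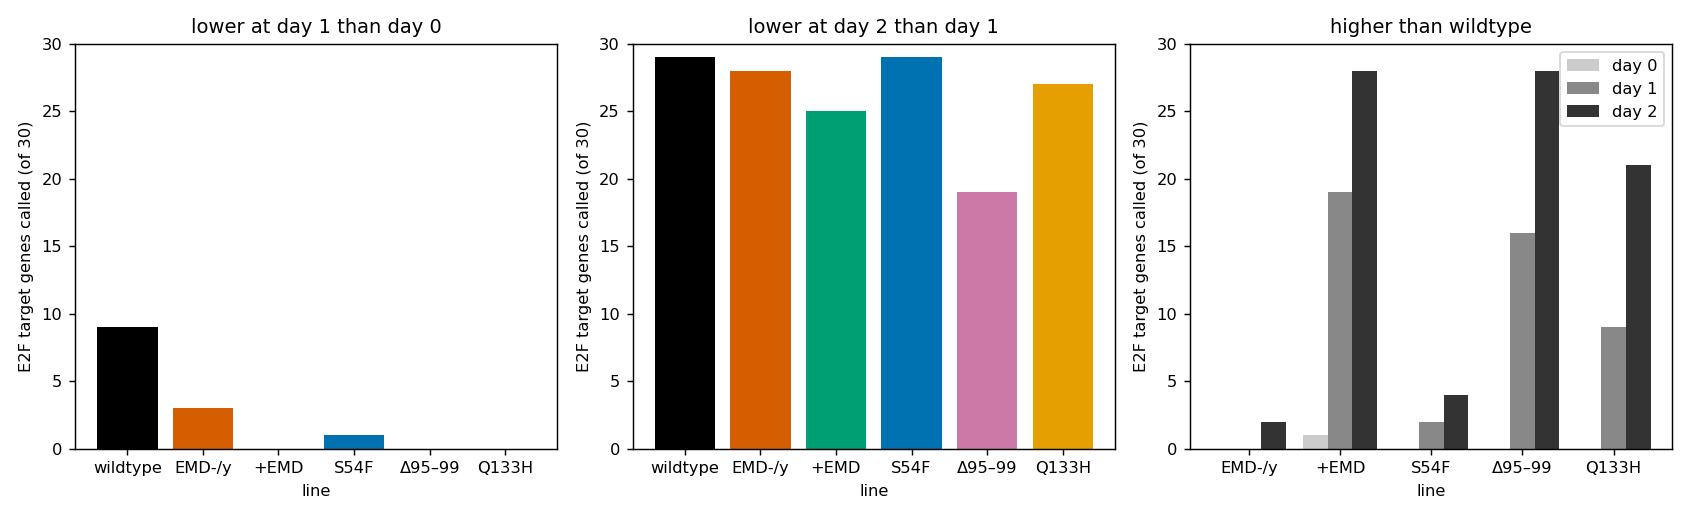
Number of 30 E2F target genes called (at least 2-fold with an adjusted p below 0.05, limma) as lower on day 1 than day 0, lower on day 2 than day 1, and higher than wildtype on each day, by line. In wildtype 9 and 29 were lower over the 2 intervals, and on day 2 +EMD and Δ95–99 had 28 each above wildtype against 2 in EMD-/y and 4 in S54F.

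Transitions were compared with those of wildtype directly, and 6 of 100 gene-by-transition differences were called (3 lower and 3 higher). From day 1 to day 2 they were E2f7 in +EMD (1 of 10 genes; 3.51% of all genes), E2f6 and E2f7 in Δ95–99 (2; 4.3%) and E2f6 and E2f7 in Q133H (2; 8.92%). From day 0 to day 1 it was E2f2 in Q133H (1; 11.1%). Limma called 0 in EMD-/y (0.0151% of all genes) and 0 in S54F (0.0831%) from day 1 to day 2, where 1 lower and 1 higher and 2 lower and 1 higher had an unadjusted p below 0.05. In Δ95–99 from day 0 to day 1 it called 0 (3.46%; 0 lower and 2 higher at that p). Over the same interval it called 0 in EMD-/y (0.0% of all genes; 0 at that p), 0 in +EMD (1.87%; 0 lower and 5 higher) and 0 in S54F (0.574%; 0 lower and 1 higher). E2f7 in +EMD was 1.19 above the wildtype change there (adjusted p = 0.1929), and it passed without library 3 of Q133H on day 2 (1.19; adjusted p = 0.02095) or with each library counted separately (1.28; adjusted p = 0.01303). Wildtype libraries enter all of these differences.

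Apoptosis genes that E2f1 is known to activate were a list of 7, of which 6 were tested (not Trp73). From day 0 to day 1, 4 were called higher in wildtype (beside 19.0% of all genes called in either direction), 5 in +EMD (13.9%) and 3 in each of EMD-/y (15.9%), S54F (11.9%), Δ95–99 (9.97%) and Q133H (9.14%). Limma called 0 lower, and 1 (in wildtype) was lower at an unadjusted p below 0.05. Pmaip1, which encodes Noxa, rose from 925.3 ± 193.5 to 6631 ± 904.5 normalized counts in wildtype (2.72; adjusted p = 2.745e-07). Bcl2l11, which encodes Bim, was above wildtype on day 2 in Q133H (1.62; adjusted p = 9.659e-08) and Δ95–99 progenitors (1.46; adjusted p = 7.103e-07). Germline genes that E2f6 is known to silence were a list of 5, of which 2 reached 10 normalized counts and were tested. Both fell from day 0 to day 1 in wildtype, Stag3 from 56.7 ± 5.82 to 15.8 ± 6.12 (−1.85; adjusted p = 0.006933) and Smc1b from 47.0 ± 3.83 to 5.75 ± 2.69 (−2.72; adjusted p = 0.003822). Stag3 was above wildtype on day 1 in +EMD (1.53; adjusted p = 0.02587), at 43.3 ± 1.31. On day 2 it was above wildtype in +EMD and Δ95–99 (1.60 and 1.39; adjusted p = 0.02006 and 0.036), at 27.9 ± 14.7 and 19.7 ± 6.81 against 6.11 ± 4.09. In Q133H progenitors on day 2, Stag3 was at 4.26 ± 3.62.

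The muscle markers also differed from wildtype in some lines where E2F genes did. In EMD-/y progenitors, where E2f7 was above wildtype on day 2, 0 of 5 markers reached 2-fold in the deposited values on any day. On days 1 and 2, 1 marker was higher and 0 were lower there at an unadjusted p below 0.05 (limma). In Q133H progenitors, 4 of 5 myogenic markers were called lower than wildtype on day 1, beside 19.3% of all genes called in either direction. On day 2, 3 were called lower (29.1% of all genes). Myog, a factor of terminal differentiation, was at 2809 ± 233.2 normalized counts on day 1 against 37120 ± 3827 in wildtype (−3.66; adjusted p = 2.727e-05). On day 2 it was at 21400 ± 19810, in the group whose library 3 stood apart. In Δ95–99, 2 markers were called lower on day 1, beside 16.0% of all genes. Myog was among them (−1.79, adjusted p = 0.01647). On day 2 limma called 0 lower (19.2% of all genes), and 1 was lower at an unadjusted p below 0.05. In +EMD progenitors limma called 0 lower (0 at an unadjusted p below 0.05) and Myf5, a factor of proliferating myoblasts, was higher on all 3 days (1.92, 2.12 and 1.82). Myf5 was also higher in Δ95–99 on all 3 days (2.08, 2.64 and 3.10), in Q133H on days 1 and 2 (1.75 and 2.21; adjusted p = 0.0005866 and 2.888e-05) and in S54F on day 2 (1.25; adjusted p = 0.02286). The part of these markers in the E2F values was not tested. Of the 6 markers of other cell types, 3 were tested, of which 1 was called above wildtype on day 2 in each of +EMD, S54F and Δ95–99 and 1 below it in Q133H. The summed level of the 6 was 14.3 to 15.4 in wildtype on day 2, 34.1 to 39.9 in +EMD, 21.5 to 25.8 in Δ95–99, 22.2 to 25.5 in S54F, 18.6 to 21.2 in EMD-/y and 16.0 to 18.8 in Q133H progenitors. Ptprc (at most 2.04) and Adipoq (at most 0.56) were near 0 throughout.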

How the data were processed

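Poly(A) RNA from 54 samples was sequenced as paired reads. The authors' sequencing provider cleaned the reads with SOAPnuke, aligned them to mm10 with HISAT2 and normalized them with DESeq2. Versions are not given in the sources used here. The deposited tables hold 1 signal value per group and gene, on the scale of counts divided by size factors, in 15 comparisons of a line with wildtype and 12 between days. They also hold the authors' own fold changes and p-values, which were not used.

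In each table the mean of both group values equals the mean of count divided by size factor over its 6 libraries. Size factors were read from genes with 1 read in 1 library (0.849 to 1.15; misfit at most 0.883%), and whole reads were found by lattice reduction (sympy 1.14.0). All 13234 genes with a highest value of at least 10, of 14016 listed in every table, were recovered. For 12760 genes, including all 10 described here, the reads were solved from the 15 tables against wildtype and checked on the other 12. The largest residual was 2.37 rounding errors. Tested on simulated data, 99 of 100 genes were found and 0 wrong solutions were accepted. Libraries carry no replicate number in the tables, so libraries 1 to 3 are numbered arbitrarily. No pair of libraries was within sampling noise of each other.

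Group means were compared with limma 3.58.1 (R 4.3.3; eBayes with a trend) on log2(reads/size factor + 1), in 1 fit of 36 samples (18 residual degrees of freedom) with the closest pair of each group averaged. A log2 difference on this scale understates the change of genes with low counts. Contrasts were the 27 tables and each line's change between days minus that of wildtype. P-values were adjusted over 13234 genes by the Benjamini-Hochberg method. The test was chosen after the data were seen, since no test had been planned for tables of group values. The 10 genes and all gene lists were chosen with earlier results of these data known. Of each other list, the 2 lowest and 2 highest genes by wildtype change from day 0 to day 1 were to be named; Gmcl1 was named after its value was seen. Some genes of these lists are not reported here by name. Genes without a symbol stayed out. RefSeq promoter windows and GENCODE vM21 overlaps (minimap2 2.31-r1302 for copies of at least 200 bases and 97% identity) used GRCm38. Alternatives tried were other folds, floors, pseudocounts and scalings, each library counted separately, the third libraries as a block, and leaving out each library.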

Additional observations from a re-analysis of the deposited data

Results flagged for a closer look

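In 9 cases the change of an E2F gene between days differed from the wildtype change by a test of the difference itself (limma, adjusted over 13234 genes, log2 scale). For E2f7, a repressor normally transcribed in S phase, the difference from day 1 to day 2 was 2.56 in +EMD (adjusted p = 0.005694), 2.60 in Δ95–99 (adjusted p = 0.00423) and 2.02 in Q133H progenitors (adjusted p = 0.01118). For E2f6 over the same interval it was −0.87 in +EMD (adjusted p = 0.002397), −1.11 in Δ95–99 (adjusted p = 0.0003921) and −1.17 in Q133H progenitors (adjusted p = 0.0001546). For E2f3 from day 0 to day 1 it was 0.65 in Δ95–99 (adjusted p = 0.01437) and 0.71 in Q133H progenitors (adjusted p = 0.002896). For E2f2 from day 0 to day 1 it was −1.59 in Q133H progenitors (adjusted p = 0.002718). The same wildtype libraries enter all of these differences, so the lines are not independent of each other.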

How the results depend on the processing

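Counts of the deposited values depended on the fold required. At 1.5-fold, the E2F and DP genes counted lower between days went from 16 to 35 and those counted higher from 4 to 8, and against wildtype from 4 to 18 lower and from 11 to 26 higher. At 3-fold, 6 were lower between days and 5 higher than wildtype, and the E2F targets went from 168 to 104 lower between days and from 145 to 87 higher than wildtype. Targets counted higher between days went from 0 to 6 at 1.5-fold and to 1 with values scaled to the group sums. In the limma fit, counting each library separately raised the called differences from wildtype transitions from 6 to 10 for the E2F and DP genes and from 30 to 94 for the targets. Leaving out 1 library at a time gave 16 to 18 lower and 4 to 5 higher between days, 4 to 5 lower and 10 to 12 higher against wildtype, and 5 to 8 for transitions. For targets it gave 163 to 177 lower between days, 125 to 156 higher than wildtype and 20 to 74 for transitions, the 74 without library 3 of Q133H on day 2. The cause of these changes was not tested. Scaling by total reads moved the median of all genes by −0.27 (S54F from day 1 to day 2) to 0.26 (Q133H against wildtype on day 2). Of 270 differences of the 10 genes, 269 in the fit were within 1.5 times of the deposited ratio. The exception was E2f7 in Q133H from day 1 to day 2 (−2.09 deposited, −2.79 in the fit). No deposited difference of at least 2-fold reversed its direction in the fit. Small differences can change sign within 1.5 times, and such changes were not counted. The third libraries of different groups deviated together on day 0 (median r = 0.412 over 15 pairs of groups) and less on day 1 (0.244) and day 2 (−0.132). No paired analysis was possible because the columns carry no replicate number.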
